A study of Mus musculus with 28 samples.

Results

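The genes described here encode AMPA receptors and the membrane proteins that assemble with them: the 4 pore-forming subunits (Gria1, Gria2, Gria3 and Gria4), 4 transmembrane AMPA receptor regulatory proteins or TARPs (Cacng2, Cacng3, Cacng4 and Cacng8) and 2 cornichons (Cnih2 and Cnih3). They were chosen by gene name, and all 10 were found among the 22919 genes that the authors' comparison tables list. All 10 were well covered, with mean normalized counts from 547 (Cnih2) to 24278 (Gria1), and each had an adjusted p-value in all 7 deposited comparisons.

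Nascent RNA was measured by Bru-seq in forebrain cultures from CD1 mouse embryos at embryonic day 18. Bru-seq labels RNA with bromouridine for a short time and sequences the captured RNA, so its reads report transcription during the label rather than the RNA that has accumulated. Each replicate pooled cortices and hippocampi of several embryos, and the cultures held neurons, astrocytes and oligodendrocyte precursor cells. All groups received a lentivirus on day 14 in vitro, either with a control hairpin (shCtrl) or with one directed at Rai1 (shRai1), which encodes a chromatin-binding protein, and all were harvested on day 17. In the last 4 hours the cultures had water as vehicle, tetrodotoxin (TTX, 1 µM), which blocks sodium channels and silences firing, or bicuculline (BIC, 20 µM), which blocks inhibitory GABA-A receptors and raises network firing. Bromouridine (2 mM) was present for the last 20 minutes. The 16 libraries formed 6 groups of 3, except shCtrl vehicle and shCtrl BIC with 2 each. No values per library were used here, so every change below is the authors' DESeq2 estimate with its standard error (SE), and levels are pooled over each group. A change is called where its adjusted p is under 0.05. Transcription of Rai1 itself was not called lower in shRai1 under any treatment. Its deposited log2 difference from shCtrl was 0.16 (SE 0.07) in vehicle, -0.12 (SE 0.06) in TTX and 0.03 (SE 0.07) in BIC. These reads report transcription during the label, so they do not show how much Rai1 messenger or protein was left.

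AMPA receptors are tetramers of GluA subunits, the products of the Gria genes, and carry most fast excitatory transmission in the forebrain. GluA2, once its messenger is edited, keeps calcium out of the channel, so the balance of Gria2 against the other subunits sets a basic property of the synapse. TARPs and cornichons bind the receptor, help bring it to the surface and the synapse, and slow its closing. Long silencing or long overactivity of cultured neurons is known to scale the number of synaptic AMPA receptors up or down. The treatment here lasted hours, and what was read was transcription, not receptor protein.

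Promoters are shown for 4 of the 5 members whose response to BIC was called in both arms: Gria2 and Cnih3, which rose, and Gria4 and Cnih2, which fell. Each is the 250 bases before the RefSeq start on GRCm38.p6, given 5′ to 3′ on the gene's own strand; the authors' intervals further below are on another build, mm9. Capitals mark matches, on either strand, to short motifs of factors tied to neuronal activity or to general promoter function: the cAMP response element TGACGTCA, the AP-1 site TGANTCA, the EGR-type site GCGNGGGCG, the SP1-type GC box GGGCGG and the E-box CACGTG.
Gria2, chr3:80802836-80803085, minus strand: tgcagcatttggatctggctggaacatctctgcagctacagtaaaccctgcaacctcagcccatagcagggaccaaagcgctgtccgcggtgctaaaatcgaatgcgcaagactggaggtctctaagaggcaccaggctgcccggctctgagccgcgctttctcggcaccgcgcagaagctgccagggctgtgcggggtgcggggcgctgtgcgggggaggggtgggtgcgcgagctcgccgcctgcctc
Cnih3, chr1:181352378-181352627, plus strand: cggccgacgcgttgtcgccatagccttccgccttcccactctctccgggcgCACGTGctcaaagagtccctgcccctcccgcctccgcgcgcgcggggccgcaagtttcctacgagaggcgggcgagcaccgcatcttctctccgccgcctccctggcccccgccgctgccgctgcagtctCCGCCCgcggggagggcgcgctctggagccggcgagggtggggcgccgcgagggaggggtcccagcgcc
Gria4, chr9:4796235-4796484, minus strand: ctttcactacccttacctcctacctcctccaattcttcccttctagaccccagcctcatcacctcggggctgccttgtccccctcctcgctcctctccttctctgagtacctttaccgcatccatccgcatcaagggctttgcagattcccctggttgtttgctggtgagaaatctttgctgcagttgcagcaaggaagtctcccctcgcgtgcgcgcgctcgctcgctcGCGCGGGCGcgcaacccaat
Cnih2, chr19:5098522-5098771, minus strand: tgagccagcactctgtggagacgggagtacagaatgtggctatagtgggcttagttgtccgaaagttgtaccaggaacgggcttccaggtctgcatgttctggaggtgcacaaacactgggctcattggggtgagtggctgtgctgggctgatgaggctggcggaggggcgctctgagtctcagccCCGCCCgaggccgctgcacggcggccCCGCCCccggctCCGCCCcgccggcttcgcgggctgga

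Promoter windows were read for 6 of the 10 members, these 4 with Cacng2 and Cacng8, and the 6 windows ranged from 48% to 76% G or C, against a median of 52.4% over all 32851 promoter windows. Cnih3 was the richest in G and C and held an E-box, 199 to 194 bases before its start, and a GC box. Cnih2 held 3 GC boxes within the last 64 bases, and Gria4 held the EGR-type site 20 to 12 bases before its start. No letters of these motifs were found in the Gria2, Cacng2 or Cacng8 windows. Over all windows, the GC box was found in 32.7%, the AP-1 site in 6.75%, the E-box in 6.02%, the EGR-type site in 4.7% and the cAMP response element in 1.55%. These matches are letters in a window and say nothing of what binds there.

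In control cultures without drug, the order of nascent RNA per length put Cnih2, Gria1 and Gria2 at the top and Gria3 at the bottom. FPKM, the authors' measure of reads scaled by gene length and library size, was deposited as 1 pooled value per group with bounds. For vehicle it was 60.3 for Cnih2 (bounds 41.6 to 79.0), 48.5 for Gria1 (37.6 to 59.5) and 42.4 for Gria2 (31.9 to 52.9). Cacng8, the TARP known for its abundance in hippocampus, followed at 26.3 FPKM and Gria4 at 20.3 FPKM. The remaining TARPs were at 16.1 FPKM (Cacng3), 15.0 FPKM (Cacng2, which encodes stargazin) and 10.5 FPKM (Cacng4), with Cnih3 at 11.6 FPKM and Gria3 at 8.96 FPKM. The bounds of every pair of neighbours in this order overlapped, so only distant ranks are apart. The same genes led and trailed on a second scale, the mean normalized count per kilobase over all groups, with 76.2 for Gria1, 49.7 for Gria2 and 8.33 for Gria3.

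**Figure D1:**
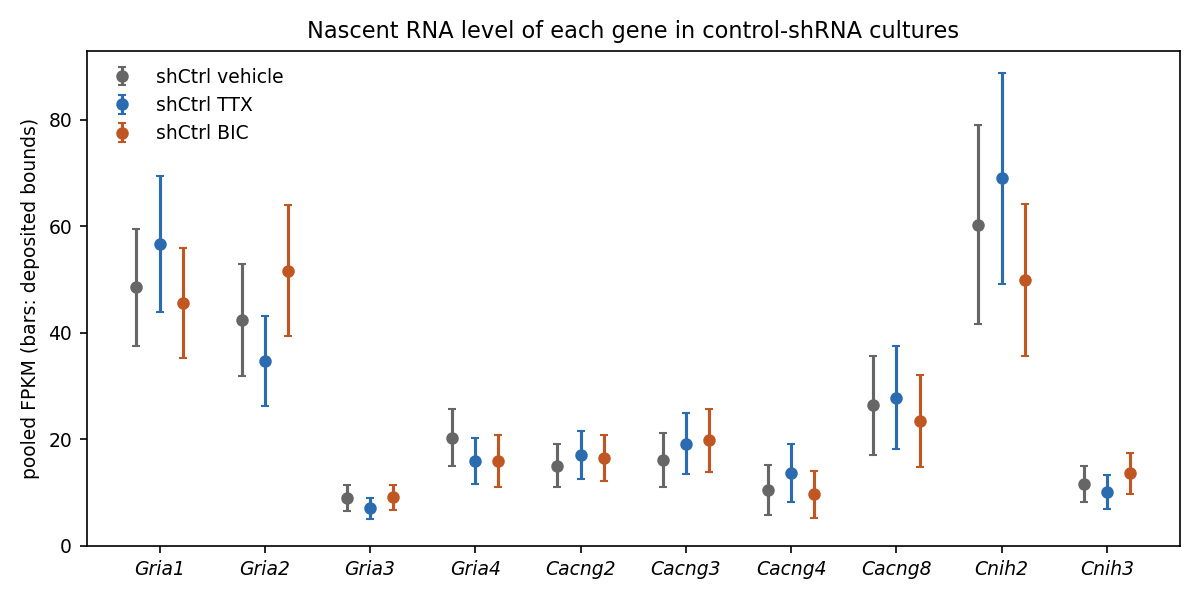
Pooled FPKM (vertical axis) of each of the 10 genes in shCtrl cultures with vehicle (grey), TTX (blue) or BIC (orange), with bars for the deposited bounds. Cnih2, Gria1 and Gria2 stand above 30 FPKM in all 3 groups, Gria3 stands below 10 FPKM, and the bounds of treated and vehicle cultures overlap for every gene.

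The authors' intervals place the members on mm9, each interval taking in exons and introns of its gene. The subunits are long genes: Gria1 at chr11:56825120-57143746 (319 kb), Gria2 at chr3:80488858-80606713 (118 kb), Gria3 at chrX:38754478-39031778 (277 kb) and Gria4 at chr9:4417893-4796234 (378 kb). The TARP intervals ran from 20.9 kb for Cacng8 (chr7:3394459-3415366) to 126 kb for Cacng2 (chr15:77824053-77949710), with Cacng3 at chr7:129815258-129912907 and Cacng4 at chr11:107596094-107655778. Cnih3 lies at chr1:183282759-183390772 (108 kb). Cnih2 is the shortest, and its listed interval, chr19:5088538-5098418, is shared with Yif1a, so reads of these neighbours may not be fully separated and Cnih2 values carry that uncertainty. Yif1a, with a mean normalized count of 175 against 547, was called in none of the comparisons below. The intervals of the other 9 members overlapped no listed gene.

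Silencing with TTX raised transcription of 1 pore-forming subunit, 3 TARPs and 1 cornichon in shCtrl cultures, and lowered none that passed the test. Gria1, whose product is the subunit most tied to activity-dependent delivery to synapses, went from 48.5 to 56.6 pooled FPKM. The authors' deposited table gave it a log2 change of 0.42 (SE 0.10), 1.34-fold, with a DESeq2 adjusted p of 0.000379. Cacng3 rose from 16.1 to 19.2 FPKM, and its deposited log2 change was the largest of the 10, at 0.59 (SE 0.13, adjusted p 4.88e-05). Cnih2 rose from 60.3 to 69.0 FPKM, with a deposited log2 change of 0.54 (SE 0.10, adjusted p 1.42e-06). Cacng8 (26.3 to 27.8 FPKM, deposited log2 change 0.34, SE 0.10) and Cacng2 (15.0 to 17.0 FPKM, deposited log2 change 0.23, SE 0.08) rose less, with adjusted p of 0.0026 and 0.0203.

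The other 3 subunits did not pass the test in TTX, and their deposited values were all below 0. Gria2 stood at 34.7 FPKM against 42.4 in vehicle, with a deposited log2 change of -0.20 (SE 0.12, adjusted p 0.205). Gria3 had a deposited log2 change of -0.40 with the widest error of the 10 (SE 0.22, adjusted p 0.189), and Gria4 one of -0.11 (SE 0.11). Cnih3 (-0.11, SE 0.08) and Cacng4 (-0.04, SE 0.11) were not called in that deposited table either. Thus 5 of 10 members were called, 5 higher and 0 lower, where 26.7% of the 15464 genes with an adjusted p were called, 11.8% as higher and 14.9% as lower. Members are abundant, and abundant genes are called more often: among genes whose mean normalized count reached 500 the share was 40.8%. The median log2 change of the 10 was 0.10, against 0.00 over all tested genes. In bulk RNA of a mixed culture, a change in the number of cells of a type and a change in RNA per cell cannot be told apart.

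In the shRai1 cultures the same treatment gave 3 calls, Cacng3 and Cnih2 as higher and Cnih3 as lower, where 30.5% of tested genes were called, 13.7% as higher, 16.8% as lower, and 44.6% among those whose mean normalized count reached 500. The deposited table gave Cacng3 a log2 change of 0.43 (SE 0.11, adjusted p 0.00119) and Cnih2 one of 0.25 (SE 0.09, adjusted p 0.017). Cnih3 fell by 0.58 on the log2 scale in the deposited table (SE 0.07, adjusted p 2.69e-14), to 0.669 of vehicle. Gria1 (0.22, SE 0.09, adjusted p 0.0553) and Cacng8 (0.18, SE 0.08, adjusted p 0.0757) did not pass in this deposited table, while Cacng2 was at 0.00 (SE 0.07). Gria1 passed under centring on the median gene (adjusted p 0.0448). All 10 members had the same sign in both arms, which share no library, and so did 79.3% of genes with a mean count of 500 or more. The median of the 10 was -0.04 in shRai1, against 0.00 over all tested genes.

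Averaged over the arms, TTX raised Gria1 (log2 change 0.32, SE 0.07), Cacng3 (0.51, SE 0.09), Cacng8 (0.26, SE 0.06) and Cnih2 (0.40, SE 0.07) and lowered Cnih3 (-0.34, SE 0.05), each with an adjusted p of 0.000209 or less. These 5 calls among 10 stand beside 33.1% over all 18241 genes in the averaged contrast. Gria2 (-0.17, SE 0.08, adjusted p 0.075), Gria3 (-0.33, SE 0.15, adjusted p 0.079), Gria4 (-0.15, SE 0.07, adjusted p 0.0933) and Cacng2 (0.12, SE 0.05, adjusted p 0.0843) did not pass.

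BIC raised Gria2, Cacng3 and Cnih3 and lowered Gria4 and Cnih2, each in both arms. Gria2 went from 42.4 to 51.7 pooled FPKM in shCtrl, and the deposited log2 change was 0.55 (SE 0.13, adjusted p 0.000128), 1.46-fold. In shRai1 the deposited log2 change of Gria2 was 0.62 (SE 0.10, adjusted p 6.43e-09), 1.54-fold. Cacng3 had the largest deposited change of the 10 in both arms, 0.76 (SE 0.14, adjusted p 1.11e-06) in shCtrl and 0.84 (SE 0.11, adjusted p 1.46e-12) in shRai1, or 1.69-fold and 1.79-fold. Its pooled level in shCtrl was 19.8 FPKM, against 16.1 in vehicle.

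The cornichons moved in opposite directions. Cnih3 rose, with deposited log2 changes of 0.45 (SE 0.09, adjusted p 5.05e-06) in shCtrl and 0.27 (SE 0.07, adjusted p 0.000481) in shRai1, and stood at 13.6 against 11.6 FPKM in shCtrl. Cnih2 fell by 0.30 (SE 0.12, adjusted p 0.0345) in the deposited shCtrl table and by 0.40 (SE 0.09, adjusted p 5.85e-05) in the deposited shRai1 table, from 60.3 to 49.9 FPKM in shCtrl.

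Among the subunits, Gria4, which encodes the subunit known from interneurons and early development, went the opposite way to Gria2. It fell by 0.32 (SE 0.12, adjusted p 0.0236) in shCtrl and by 0.24 (SE 0.09, adjusted p 0.0315) in shRai1 in the deposited tables. Both calls of Gria4 ended when changes were centred on the median gene, at adjusted p 0.0577 and 0.0708. Cnih2 in shCtrl also lost its call under that centring (adjusted p 0.0812). Gria1 was called in neither arm: its deposited log2 changes were -0.00 (SE 0.11) in shCtrl and -0.04 (SE 0.09) in shRai1, with 95% intervals from -0.23 to 0.22 and from -0.22 to 0.13. Gria3 had nearly the same deposited estimate in both arms, 0.27 and 0.28, with SE of 0.24 and 0.20, and was called in neither.

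Of the remaining TARPs, Cacng4 had a deposited log2 change of 0.39 in shRai1 (SE 0.09, adjusted p 0.000128) and of 0.21 in shCtrl (SE 0.12, adjusted p 0.165). Cacng8 had -0.21 in the deposited shRai1 table (SE 0.08, adjusted p 0.0353) and 0.04 in shCtrl (SE 0.11), and the former call was lost under centring (adjusted p 0.085). Cacng2 was called in neither deposited table, at 0.12 (SE 0.09) and 0.10 (SE 0.07). Counting all, 5 of 10 members were called in shCtrl, 3 higher and 2 lower, where 34.4% of tested genes were called, 17.4% higher and 17% lower, and 55.4% of those with a mean count of 500 or more. In shRai1 the count was 7 of 10, 4 higher and 3 lower, where 42.5% of tested genes were called, 21.3% higher and 21.3% lower, and 66.6% of those with a mean count of 500 or more. The members' share was thus close to that of genes of like abundance. Their median log2 change was 0.17 in shCtrl and 0.19 in shRai1, against -0.02 and 0.00 over all tested genes. Signs matched between arms for 9 of 10 members, all but Cacng8, and for 90.3% of genes with a mean count of 500 or more.

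**Figure D2:**
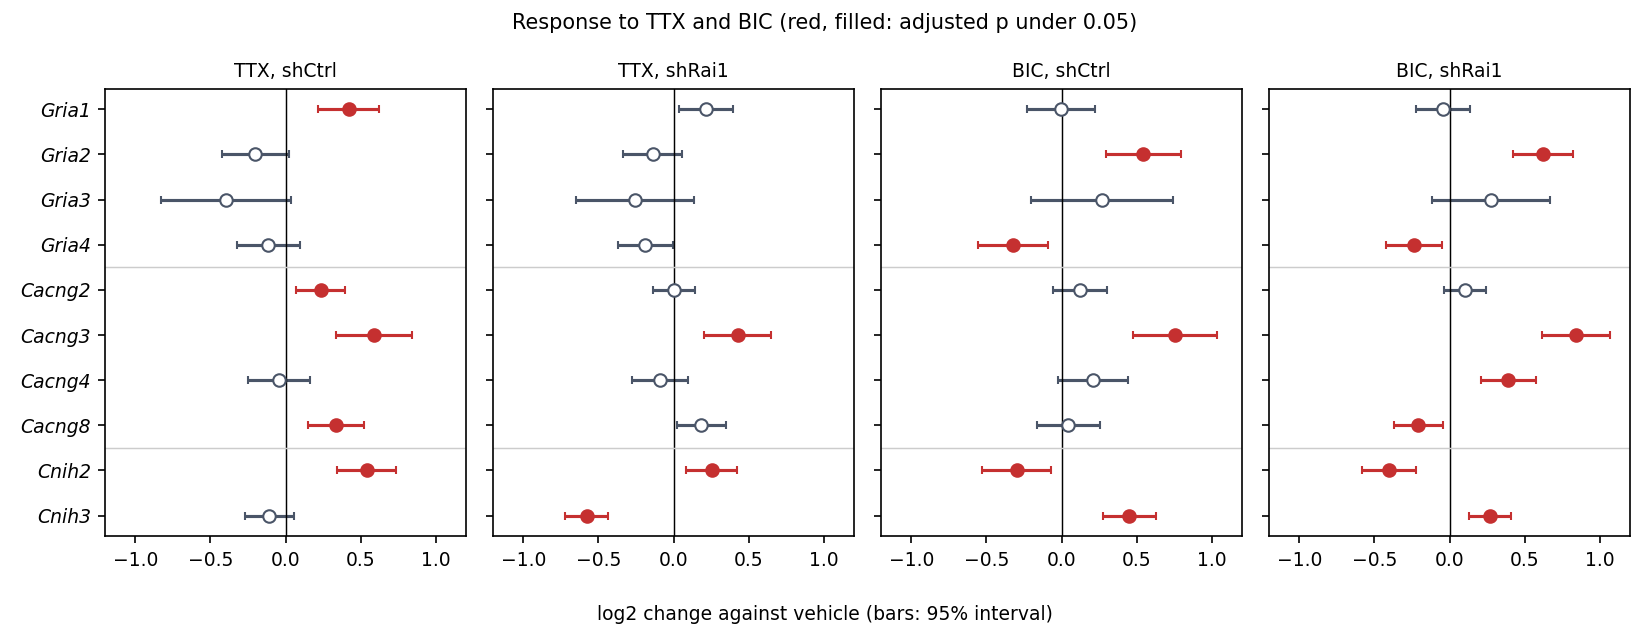
Deposited log2 change against vehicle (horizontal axis) of each gene for TTX and BIC in shCtrl and shRai1, with 95% intervals and filled red points for adjusted p under 0.05. Cacng3 is filled and to the right in all 4 panels, Cnih2 changes side between TTX and BIC, and Gria2 is filled only under BIC.

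Averaged over the arms, BIC raised Gria2 (log2 change 0.58, SE 0.08), Cacng3 (0.80, SE 0.09), Cacng4 (0.30, SE 0.08) and Cnih3 (0.36, SE 0.06) and lowered Gria4 (-0.28, SE 0.08) and Cnih2 (-0.35, SE 0.07), each with an adjusted p of 0.000805 or less. These are 6 of 10 members, where 46% of all genes in this contrast were called. Gria1 (-0.02, SE 0.07), Gria3 (0.27, SE 0.16), Cacng2 (0.11, SE 0.06) and Cacng8 (-0.08, SE 0.07) were not, although Cacng2 passed under centring on the median gene (adjusted p 0.0187). Set side by side with TTX, Cacng3 rose under both drugs, Cnih2 rose under TTX and fell under BIC, and Cnih3 did the reverse. Both responses use the same vehicle libraries. The averaged TTX fall of Cnih3 comes from arms that differed: it was called in shRai1 and not in shCtrl, as tested further below. A call under 1 drug and not the other does not show that the drugs differ, so the difference was tested.

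**Figure D3:**
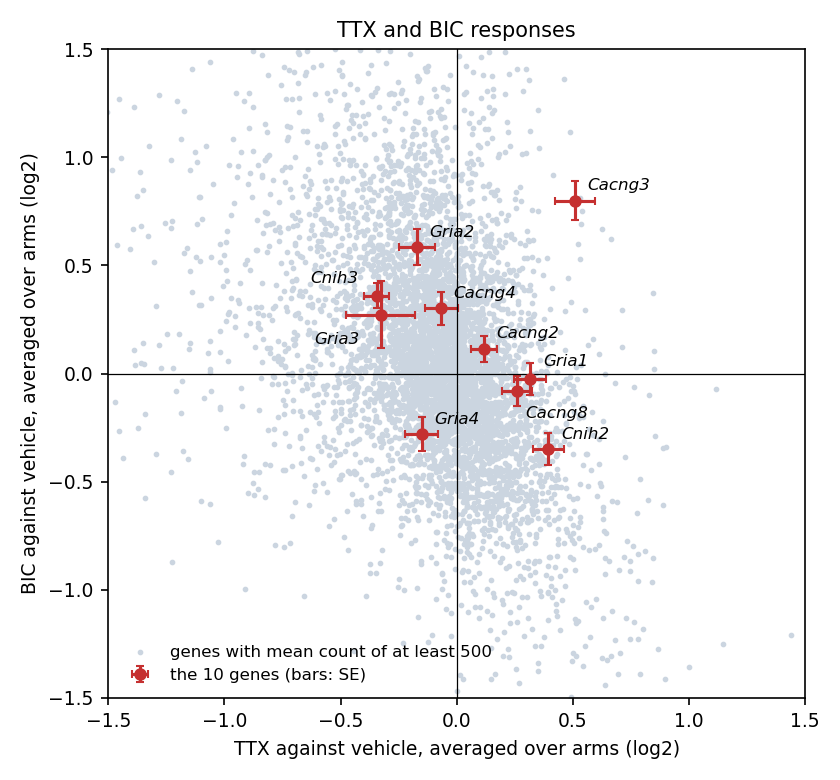
Response to TTX (horizontal axis) against response to BIC (vertical axis), both log2 and averaged over the shRNA arms. The 10 genes are red, with bars for SE. Grey points are the 5949 genes with both averaged responses whose mean normalized count reached 500, of which 170 lie outside the axes. Both responses are measured against the same vehicle libraries. Cacng3 sits at 0.51 and 0.80, above 0 on both axes, while Cnih2 and Cnih3 sit in opposite corners.

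The test was BIC minus TTX within an arm. The error used here ignores the shared vehicle and is therefore an upper bound. In shCtrl, Gria2 (log2 difference 0.75, SE 0.17, adjusted p 9.62e-05) and Cnih3 (0.56, SE 0.12, adjusted p 3.4e-05) were higher under BIC, and Gria1 (-0.42, SE 0.15, adjusted p 0.0209) and Cnih2 (-0.84, SE 0.15, adjusted p 5.83e-07) were lower. That is 4 of 10 members against 32.4% of all genes. In shRai1, 6 of 10 were called, against 39.5% of all genes: Gria2 (0.76, SE 0.14), Cacng3 (0.42, SE 0.16), Cacng4 (0.48, SE 0.13) and Cnih3 (0.85, SE 0.10) as higher and Cacng8 (-0.39, SE 0.12) and Cnih2 (-0.66, SE 0.13) as lower, with adjusted p of at most 0.0272. Gria1 had a difference of -0.26 there (SE 0.13, adjusted p 0.0982). Gria4 did not pass in either arm, at -0.21 (SE 0.16, adjusted p 0.379) in shCtrl and -0.05 (SE 0.13, adjusted p 0.852) in shRai1. Cacng4 (0.26, adjusted p 0.239) and Cacng8 (-0.29, adjusted p 0.11) did not pass in shCtrl. Cnih2 thus had 0.56 of its TTX level under BIC in shCtrl and 0.635 in shRai1, and Gria2 had 1.68 and 1.7 times its TTX level.

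The balance of the subunits' nascent RNA followed these changes. Gria2 made up 35.3% of the summed FPKM of the 4 Gria genes in shCtrl vehicle, 30.4% in TTX and 42.3% in BIC, and Gria1 made up 40.4%, 49.6% and 37.3%. The ratio of Gria1 to Gria2 FPKM was 1.14 in vehicle, 1.63 in TTX and 0.883 in BIC, while the sum over the 4 genes stayed between 114 and 122 FPKM. These shares come from 1 pooled value per group and carry no test. They also depend on the scale: the mean normalized count per kilobase, which is not split by group, was 76.2 for Gria1 and 49.7 for Gria2.

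**Figure D4:**
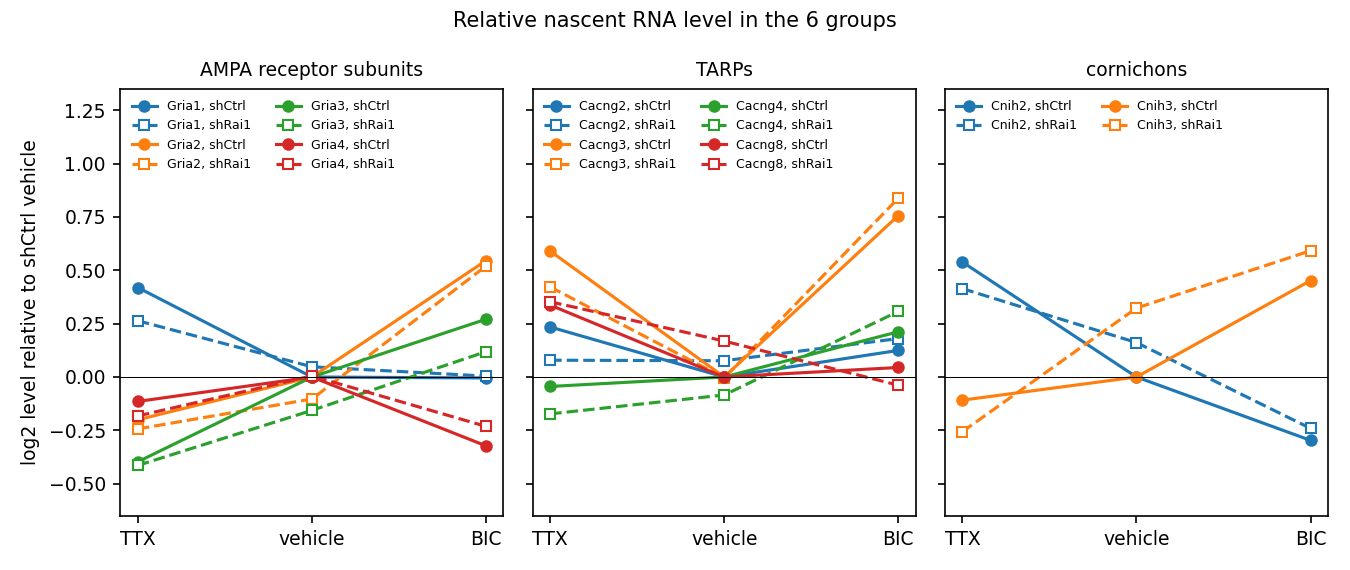
Log2 level relative to shCtrl vehicle (vertical axis) in TTX, vehicle and BIC, rebuilt from the deposited log2 changes, for subunits, TARPs and cornichons, with solid lines for shCtrl and dashed lines for shRai1. Cacng3 has its lowest values in vehicle in both arms, Cnih2 falls from TTX to BIC, and the Cnih3 lines cross between TTX and vehicle.

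Over the 6 groups, relative levels rebuilt from the deposited changes spanned least for Cacng2 (0.23 on the log2 scale) and most for Cnih3 (0.85), Cacng3 (0.84) and Cnih2 (0.84). Gria2 and Gria3 both had their lowest level in shRai1 with TTX and their highest in shCtrl with BIC. The arms were not told apart in this order. For Gria2 the deposited difference of shRai1 from shCtrl was -0.04 (SE 0.10) in TTX and -0.03 (SE 0.11) in BIC. For Gria3 it was -0.02 (SE 0.20) and -0.15 (SE 0.22), and none was called. The pair of members most alike in shape was Gria1 and Cacng8, with a Euclidean distance of 0.17 between their centred log2 levels over 6 groups, followed by Gria2 and Gria3 at 0.33. The least alike were Gria2 and Cnih2, at 1.53. Among all 12333 genes with a mean count of at least 50, the nearest to Gria1 were Itsn1 (distance 0.061) and Rbms3 (0.067), and to Gria2 Ubr3 (0.056) and Nus1 (0.057). The nearest to Gria3 were Nktr (0.059) and Gap43 (0.085), and to Gria4 Cplx1 (0.044) and Iba57 (0.048).

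Few differences between the shRNA arms passed the test. In vehicle only Cnih3 was called: the deposited table gave it a log2 difference of 0.32 (SE 0.08, adjusted p 0.0187), 1.25-fold higher in shRai1, where 0.857% of tested genes were called. That table carries no gene names, and its rows were named here by their mean count. No member was called by the authors' DESeq2 test in TTX, where 0.0283% of genes were called, or in BIC, where 0.00944% were. At an unadjusted p under 0.05 the counts were 2 of 10 in TTX and 0 in BIC, against 3.3% and 2.93% of all genes. For the 9 members other than Cnih3, the deposited differences ran from -0.16 for Gria3 (SE 0.22) to 0.17 for Cacng8 (SE 0.10) in vehicle. In shRai1 against shCtrl averaged over the treatments, 0 of 10 members and 0.00548% of all genes were called. At an unadjusted p under 0.05 these were 1 member and 4.12% of all genes. The members' median difference was 0.03 in vehicle, -0.13 in TTX and 0.06 in BIC. Under TTX 9 of 10 estimates were below 0, as were 61.9% of genes with a mean count of 500 or more.

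Cnih3 was also the member whose response to TTX differed between arms. Its deposited log2 change was -0.11 (SE 0.08) in shCtrl and -0.58 (SE 0.07) in shRai1, a difference of -0.47 (SE 0.11) with an adjusted p of 0.00633 by a Wald test. This was 1 of 10 members, where 0.943% of all genes were called. Cnih2 (-0.29, SE 0.13, adjusted p 0.465) and Cacng2 (-0.23, SE 0.11, adjusted p 0.475) had differences of the same sign that did not pass. The response to BIC differed between arms for 0 of 10 members by the same Wald test, where 0.0219% of all genes were called. At an unadjusted p under 0.05 the count was also 0 of 10, against 3.03% of all genes. The estimate farthest from 0 was that of Cacng8, at -0.25 (95% interval -0.52 to 0.02).

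**Figure D5:**
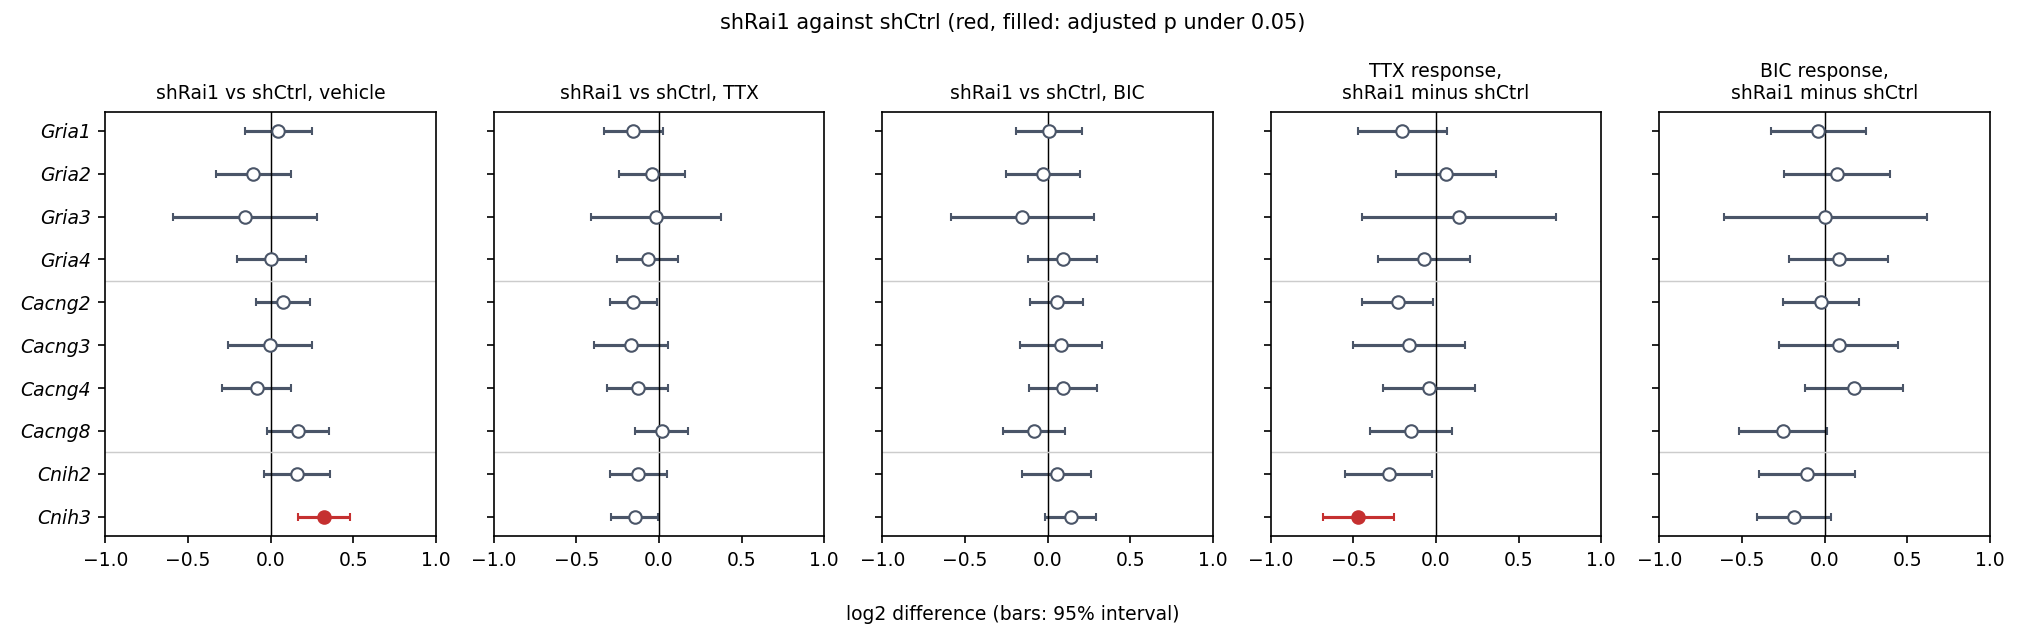
Log2 difference of shRai1 from shCtrl (horizontal axis) in vehicle, TTX and BIC, and the difference between arms in the response to TTX and to BIC, with 95% intervals and filled red points for adjusted p under 0.05. Cnih3 is the single filled gene, at 0.32 in vehicle and -0.47 in the TTX response.

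Both Cnih3 results rest on the vehicle groups, 3 libraries of shRai1 and 2 of shCtrl, and the TTX difference rests on the TTX groups as well. Oligodendrocyte-lineage markers moved with both results in the opposite direction. In the vehicle comparison 4 of the 7 markers with an adjusted p fell in the deposited table, with a median log2 difference of -0.73 over 9 markers, and Pdgfra, the precursor marker, at -1.37. In the TTX difference between arms 6 of 9 rose, with a median of 1.10. The arms also differed in these markers outside vehicle. In shRai1 against shCtrl the median was 0.38 in TTX and -0.41 in BIC, with 1 of 9 called in each. That marker was Pdgfra, at 0.50 in TTX (DESeq2 adjusted p 0.0482) and -0.90 in BIC (DESeq2 adjusted p 1.93e-07). Over all genes, 0.857% were called in the vehicle comparison, 0.0283% in that of TTX, 0.00944% in that of BIC and 0.943% in the TTX difference. The summed level of the 9 markers in shCtrl was 192 FPKM in vehicle, 164 in TTX and 190 in BIC, and none was listed at 0. Astrocyte markers had a median of -0.26 in the vehicle comparison, with 1 of 8 called (Aldoc, -0.56), and of 0.22 in the TTX difference, with none called. The 6 markers of neurons in general had medians of -0.13 and 0.01. Rbfox3 alone among these 6 was called, at 0.24 and -0.40, and the other 5 were below 0 in the vehicle comparison. The part of cell composition in the Cnih3 results was not tested.

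Markers of neurons, astrocytes and the oligodendrocyte lineage were all present in the shCtrl cultures, none of them listed at 0, and microglia markers were low, at 21.6 FPKM summed over 6 genes in vehicle. Several moved with the drugs. Over all tested genes, 26.7% were called under TTX in shCtrl and 30.5% in shRai1, and 34.4% and 42.5% under BIC. Among genes with a mean count of 500 or more these shares were 40.8%, 44.6%, 55.4% and 66.6%. Under BIC, 5 of 8 markers of excitatory neurons fell and 3 rose in both deposited tables, with a median log2 change of -0.61 in shCtrl, and their summed level was 205 FPKM against 289 in vehicle. Among 11 markers of inhibitory neurons, 3 rose and 2 fell in shCtrl, and the summed level was 582 against 538 FPKM. Of the 6 general neuron markers, 3 rose and 2 fell under BIC in each arm, with a shCtrl sum of 638 FPKM against 436 in vehicle. Astrocyte markers under BIC had 1 rise and 2 falls in shCtrl, with a sum of 259 against 331 FPKM, and 2 rises and no fall in shRai1. Of the microglia markers with an adjusted p in shCtrl, 2 of 3 rose under BIC, with a sum of 31.3 FPKM. Under TTX, 4 of 11 inhibitory markers fell and 1 rose in shCtrl, Gad1 (-0.95) and Gad2 (-0.70) among those that fell, with a sum of 431 FPKM. Of 8 astrocyte markers, 4 fell and none rose under TTX in shCtrl, at 271 FPKM in sum, whereas in shRai1 1 fell and 2 rose. Oligodendrocyte-lineage markers under TTX had 1 rise and 4 falls in shCtrl (median -0.50) and 5 rises and no fall in shRai1 (median 0.47). Of the 8 excitatory markers, 3 rose and none fell under TTX in each arm. The 6 general neuron markers had 1 rise and 3 falls under TTX in shCtrl, at 401 FPKM in sum, and 2 falls and no rise in shRai1. The part of these markers in the members' changes was not tested.

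The wider machinery of AMPA receptors responded to the drugs in both directions. Of 24 measured auxiliary and assembly proteins outside the 10, averaged over the arms, 10 rose and 8 fell under TTX (median 0.06), and 5 rose and 11 fell under BIC (median -0.13), against medians of 0.01 and 0.00 over all genes. Over all genes, 33.1% were called in the averaged TTX contrast and 46% in that of BIC, the background for this list and the next 3. Gsg1l, an auxiliary subunit of the claudin family, rose by 0.68 (SE 0.06) under TTX and fell by 1.66 (SE 0.06) under BIC. The CKAMP proteins Shisa6 (0.31, SE 0.06, then -0.87, SE 0.07) and Shisa7 (0.38, SE 0.07, then -1.13, SE 0.09) went the same way, as Cnih2 did. Nrn1, a small surface protein found in native receptor complexes, did the reverse, at -0.78 (SE 0.07) and 0.66 (SE 0.07). The atypical TARP gene Cacng5 fell under TTX (-0.80, SE 0.08) and rose under BIC (0.25, SE 0.08), and Cacng7 fell under both (-0.38, SE 0.06, and -0.21, SE 0.07). Every adjusted p of these 6 genes was at most 0.0059. Cacng1, the gamma subunit of the skeletal muscle calcium channel, and Cacng6 were barely transcribed, with mean normalized counts of only 14.6 and 16.6, and neither was called.

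Among 27 measured genes for trafficking and anchoring of the receptor, 4 rose and 12 fell under TTX and 13 rose and 8 fell under BIC, with medians of -0.12 and 0.04, beside the all-gene shares of 33.1% and 46% called and medians of 0.01 and 0.00. Those with the smallest adjusted p under TTX were activity-induced genes: Nptx2, a secreted pentraxin that clusters receptors, at -2.33 (SE 0.09), Arc, which drives their endocytosis, at -2.27 (SE 0.16), and Homer1, a scaffold, at -1.55 (SE 0.05). Under BIC they were Nptx2 at 1.40 (SE 0.08), Nptx1, its relative, at 1.12 (SE 0.07), and Dlg1, which encodes SAP97, a GluA1-binding scaffold, at 0.97 (SE 0.06). Homer1 was also lower in shRai1 vehicle in the deposited table (-0.40, SE 0.07, adjusted p 2.7e-05), and its fall under TTX was smaller in shRai1, by 0.51 (SE 0.10, adjusted p 0.00012). Myo5b, a motor for receptor-bearing endosomes, had a TTX response lower in shRai1 by a log2 difference of -0.51 (SE 0.13, adjusted p 0.013). The Homer1 and Myo5b differences between arms use the same vehicle groups as those of Cnih3, where oligodendrocyte-lineage markers also differed. The part of cell composition in them was not tested.

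The enzymes of the RNA editing family fell under TTX and rose under BIC, 3 of 3 in each case when averaged over the arms, beside 33.1% and 46% of all genes called. In shCtrl alone 2 of 3 were called under each drug, beside 26.7% of tested genes under TTX and 34.4% under BIC. In shRai1 alone 3 of 3 were called under each drug, beside 30.5% and 42.5%. Adarb1, which edits the GluA2 messenger, changed by -0.19 (SE 0.05) under TTX and 1.06 (SE 0.05) under BIC, and Adar by -0.47 (SE 0.06) and 0.69 (SE 0.06). Adarb2, a family member without known editing activity, changed by -0.94 (SE 0.12) and 0.33 (SE 0.12). Adarb1 and Gria2 both rose under BIC.

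Of 7 kainate and delta receptor subunits, the nearest relatives of the Gria genes, 4 rose and 1 fell under TTX and 3 rose and 4 fell under BIC, with medians of 0.21 and -0.44 averaged over the arms, beside 33.1% and 46% of all genes called. Grik4 rose by 0.84 (SE 0.06) under TTX and fell by 0.85 (SE 0.07) under BIC, and Grik3 was at 0.22 (SE 0.05) and -1.27 (SE 0.06). Grik1 went the other way, at -0.82 (SE 0.14) and 0.99 (SE 0.14). Grid1 (0.28, SE 0.05, and -0.44, SE 0.06) and Grik5 (0.21, SE 0.05, and -0.66, SE 0.06) moved as Grik4 did. Grik4 also rose less under TTX in shRai1, by a log2 difference of -0.43 (SE 0.12, adjusted p 0.044). That difference uses the same vehicle groups as the Cnih3 results, and the part of cell composition was not tested.

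The pooled FPKM were set against the deposited changes as a second measure in the shCtrl arm. Direction was the same for 9 of 10 members under TTX and 8 of 10 under BIC, and for all 5 called members under each drug. Exceptions were Cacng4 under both drugs and Cacng8 under BIC, none of them called. FPKM gave smaller rises: with a pseudocount of 0.1, the log2 ratio for Cacng3 was 0.25 under TTX and 0.30 under BIC, against deposited changes of 0.59 and 0.76. The cause of this difference was not tested. Gene length also moved with the BIC response over all genes with a mean count of at least 50, from a median log2 change of -0.13 in intervals under 10 kb to 0.11 in those of 200 kb or more in shCtrl. Cnih2 is in the shortest class and fell, whereas Gria4, the longest member, fell as well, and the part of length was not tested.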

How the data were processed

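TopHat2 2.1.0, Bowtie2 2.2.6, DESeq2 and mm9 are named in the submitters' processing notes. Each deposited comparison table gives a mean normalized count (a signal the authors averaged over libraries), a log2 fold change with its SE, and p-values, raw and adjusted, beside a Wald score, per the file headers. The deposited FPKM table gives 1 pooled value with bounds per condition. Its shRai1-arm columns did not follow the comparisons and served only in a mean over the 6 conditions, and 6 columns of their bounds were not used. Depth per library is unknown here. ChIP-seq was not analysed here. The design had allowed for values per library, and the deposited effects were used in their place. The p-values set each change against its SE, which rests on these libraries alone.

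The table of shRai1 against shCtrl in vehicle has no gene column; 20107 rows were named by a unique mean count, and 1085 tested rows stayed unnamed. Averaged responses, BIC minus TTX and differences between arms were combined from deposited log2 changes, with errors added in squares, a two-sided Wald test and Benjamini-Hochberg adjustment over 18241 named genes averaging 0.1 FPKM or more. The method was tested on simulated data, which do not check the deposited SE. Whether those SE hold in groups this small was not tested. Computations used Python 3.11.15 with NumPy 2.4.6, pandas 2.3.3 and SciPy 1.17.1. Promoters are RefSeq's for GRCm38.p6, 7 of the 10 members matched that table, and 1 of these promoters is not reported here. The members and lists were chosen with earlier results of these data known. All 10 members are named, and from each wider list up to 3 genes with the smallest adjusted p per drug, plus those called for shRai1 against shCtrl or a difference between arms.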

Additional observations from a re-analysis of the deposited data

Results flagged for a closer look

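The response of Cnih3 to TTX differed between the shRNA arms, by a test of the difference itself. The difference, shRai1 minus shCtrl, was -0.47 on the log2 scale (SE 0.11, Wald test, adjusted p 0.00633 over all genes tested). The authors' deposited tables gave Cnih3 a log2 difference of shRai1 from shCtrl of 0.32 in vehicle, -0.15 in TTX and 0.14 in BIC, of which the first was called. Over the other scalings, sets of tested genes and errors tried, its adjusted p ran from 0.00428 to 0.00795.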

How the results depend on the processing

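No paired analysis was possible because the deposited tables hold no values per library, and for the same reason leaving out single replicates was not run. By their titles, the shCtrl vehicle and shCtrl BIC libraries do not carry the same set of replicate numbers. The part of replicate in the shCtrl BIC changes was not tested. With an adjusted p under 0.1 in place of 0.05, the members called rose to 5 for TTX in shRai1, where 36% of all genes were called, and to 9 for TTX averaged over the arms, where 37.7% were. With 0.01, they fell to 3 for BIC in shCtrl (26.9% of all genes) and to 0 for shRai1 against shCtrl in vehicle (0.246%), where Cnih3 had an adjusted p of 0.0187. Centring on the median gene left 3 for BIC in shCtrl, and the shift itself was at most 0.04 on the log2 scale in size. Every other count of called members stayed within 1.5 times its value under these settings, under adjustment over genes with a mean count of at least 50 or over all genes, and, for the differences between arms, with errors from the tables of shRai1 against shCtrl. No called member changed direction under any of these settings. Log2 ratios of pooled FPKM differed from the deposited change by more than its SE for 13 of 20 values with a pseudocount of 0.1 and for 12 with a pseudocount of 1. The cause was not tested. Groups held 2 or 3 libraries, and Gria3 had the widest error of the members, with an SE of 0.20 or more in each of the 4 deposited responses.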
